A study of Saccharomyces cerevisiae with 3 samples.

Results

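The genes described are those of de novo purine synthesis in Saccharomyces cerevisiae, the budding yeast, seen through the strains that lack them. They were chosen by name, as every probe annotated with ADE1, ADE2, ADE3, ADE4, ADE5,7, ADE6, ADE8, ADE12, ADE16 or ADE17. Of these 10 genes, 9 had probes, 18 in all, out of 5325 named genes and 18794 named probes. No probe carried the symbol or the gene identifier of ADE5,7, which is therefore not analysed here. Both tags of each strain were on the array, and 50 of the 54 possible values (18 probes on 3 arrays) were filled.

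The study set a pool of haploid double mutants against a pool of haploid single mutants on each of 3 arrays. A pool of 5896 heterozygous diploid deletion strains had received a cassette that replaced CIN8, which encodes a kinesin of the mitotic spindle, with URA3, and was then sporulated. Double mutants, carrying a library deletion and cin8D::URA3, were grown on minimal medium without uracil, and single mutants, with the library deletion alone, on medium with 5-fluoroorotic acid (5-FOA), a compound toxic to URA3 cells. Both pools grew for 2 days at 30 °C, with 0.1, 0.15 and 0.2% 5-FOA in experiments 1, 2 and 3, and the tags were amplified from genomic DNA, with Cy3 for the double-mutant and Cy5 for the single-mutant pool. Within an experiment, all strains of a pool shared the medium, which differed between the pools, and all arrays shared the scanner. A strain was thus measured in competition with all others of its pool and not in its own culture. Whether the medium contained adenine was not given in the sources used here, nor whether the 3 experiments came from separate transformations, so each p-value reflects the scatter of 3 arrays alone and that scatter may be technical.

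Purine synthesis builds the ring of adenine and guanine step by step on ribose phosphate, which enters as phosphoribosyl pyrophosphate (PRPP). The intermediate AIR (aminoimidazole ribotide) marks the middle of the route, AICAR is a late imidazole intermediate that is formylated before the ring closes, and inosine monophosphate (IMP) is the product from which AMP and GMP are made. Yeast with a block in the route needs adenine from the medium, and blocks at the steps catalysed by Ade2 and Ade1 are widely known for the red pigment that the cells then accumulate. Since the arrays counted tags and not transcripts, all values below concern the share of a deletion strain in a pool, never the expression of the gene.

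Values are centred log2 ratios between the pools, with the sign of the deposited values. The direction of the deposited ratio was not given in the sources used here. All 4 tested strains of uracil biosynthesis (URA1, URA2, URA4 and URA5), whose haploids need uracil, lay on the positive side with means of 2.70 to 5.54. The CIN8 strain, which tests the query gene itself, had -2.03, -2.14 and -2.51 in experiments 1, 2 and 3. No pool is therefore assigned to either sign. The median of the 5204 tested strains was -0.097, and their 25th and 75th percentiles were -0.68 and 0.35.

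The ADE strains did not share a side. The strain means ran between -1.15 for ADE16 and 1.53 for ADE1. A strain was called where its mean differed from 0 with an adjusted p under 0.05 in limma's moderated test over all strains. Strains lacking ADE16, ADE2 and ADE8 were called negative, which is 3 of 9, against 17.4% of all strains. The ADE12 strain was called positive, which is 1 of 9, against 16.2%. Together 4 of 9 were called, against 33.6%. The median of the 9 means was -0.28, and their median distance from 0 was 0.46, against 0.49 over all strains. Of the 9 strains, 2 (ADE1 and ADE16) were at least 2-fold from 0, against 22.0% of all strains. The share at 2-fold or more and the median distance from 0 lay near those of the whole pool, and the list as such was not tested. No ADE strain was called when experiment 1, 2 or 3 was left out, but none of the 5204 strains was either, and 4 of 9 ADE strains had an unadjusted p under 0.05 each time (1885, 1989 and 1888 of all strains). With the 5-FOA percentage as a covariate, 0 of 9 were called and 228 of all strains, and the adjusted p-values from limma were 0.0528 for ADE16, 0.0555 for ADE2, 0.0856 for ADE8 and 0.0942 for ADE12.

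**Figure D1:**
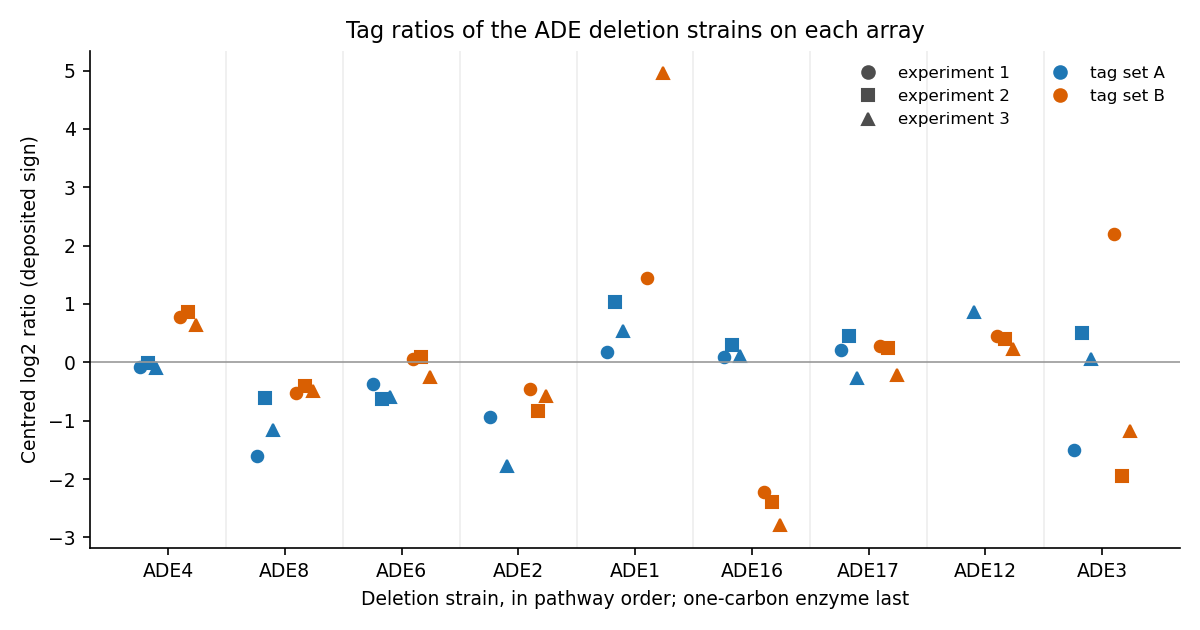
Centred log2 ratio (vertical axis) of each of the 9 measured ADE deletion strains in pathway order, with ADE3 last; colours mark the 2 tag sets and symbols the 3 experiments, and each point is 1 tag on 1 array. Tag set B of ADE16 sits between -2.79 and -2.23 while its tag set A sits between 0.095 and 0.29, and tag set B of ADE1 reaches 4.95 in experiment 3.

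The strains of the steps before AIR fell on both sides of 0. Ade4, the amidotransferase that commits PRPP to the route, is the first enzyme. The ADE4 strain had 0.35, 0.42 and 0.27 in experiments 1, 2 and 3, a narrow set of values above 0 on every array. Its mean of 0.35 ± 0.075 (SD, n = 3) missed the threshold (limma, adjusted p = 0.0613), with a 95% interval of 0.083 to 0.61. The same mean was called when only strains with complete tags were tested (limma, adjusted p = 0.0389; 0.0207 to 0.633 over its alternatives). The mean came from tag set B, at 0.78, 0.86 and 0.65, which was called positive alone (limma, adjusted p = 0.0207). Tag set A stood at -0.084, -0.016 and -0.10 and did not reach the values of the other tag on any array. The tag set A mean of -0.067 thus has the opposite sign.

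Ade8 adds the first formyl group, taken from folate, to the growing ring. The ADE8 strain had -1.06, -0.51 and -0.82, all below 0, with a mean of -0.80 ± 0.28 (SD, n = 3; limma, adjusted p = 0.0341). It was the only member called by both tags. That is 1 of the 6 ADE strains whose tags were both complete, against 5.71% of such strains in the pool called negative in this way, and 0 of 6 were called positive, against 11.2%. Tag set A gave -1.60, -0.61 and -1.15 (adjusted p = 0.0366, limma) and tag set B gave -0.52, -0.41 and -0.49 (adjusted p = 0.0394, limma). Tag set B was thus the nearer to 0 on each array and varied least.

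Ade6 is the amidotransferase of the step that follows. The ADE6 strain stood at -0.15, -0.27 and -0.42, close to 0 on all arrays. The mean of -0.28 ± 0.13 (SD, n = 3) was not called (limma, adjusted p = 0.115). Tag set A, at -0.37, -0.63 and -0.59, was called negative alone (limma, adjusted p = 0.038), whereas tag set B, at 0.063, 0.094 and -0.24, was not. Without centring, which moved the medians of the arrays by 0.15 to 0.18, the ADE6 mean was -0.45 and passed the threshold (limma, adjusted p = 0.0461; 0.038 to 0.886 over its alternatives).

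Within this arm, ADE4 exceeded ADE6 on 3 of 3 arrays, by 0.63 ± 0.11, and ADE6 exceeded ADE8 on 3 of 3, by 0.52 ± 0.35 (SD, n = 3 each). The strain values of ADE4, ADE6 and ADE8 did not overlap in any pair, which also held for 58.1% of all pairs of strains. In tag set A alone, ADE6 and ADE8 did overlap, with -0.63 for ADE6 and -0.61 for ADE8 in experiment 2.

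The enzymes of the next steps, from AIR onward, act one after the other, and their strains lay on opposite sides of 0. Ade2 carboxylates AIR, and the ADE2 strain had -0.69, -0.83 and -1.18 in experiments 1, 2 and 3, all negative (mean -0.90 ± 0.25, SD, n = 3; limma, adjusted p = 0.0252). Tag set A gave -0.94 and -1.78 in experiments 1 and 3 and was empty in experiment 2, so that it was not tested alone. Tag set B gave -0.45, -0.83 and -0.58 and was called negative (limma, adjusted p = 0.0379). Both tags of the strain were below 0 wherever measured. With the tag value nearer to 0 on each array, the mean was -0.62 and the call was lost (limma, adjusted p = 0.0521; 0.0188 to 0.0945 over its alternatives).

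Ade1 joins aspartate to the carboxylated ring. The ADE1 strain stood at 0.82, 1.03 and 2.74, the highest ADE values on every array. Its mean of 1.53 ± 1.06 (SD, n = 3) was at the 97.3th percentile of all strains and did not pass the threshold (limma, adjusted p = 0.085), with a 95% interval of 0.14 to 2.92. Most of the spread came from tag set B, at 1.45 in experiment 1 and 4.95 in experiment 3, and empty in experiment 2. The last value corresponds to a deposited ratio of 27.87, against 2.43 in experiment 1. Tag set A was measured on all arrays at 0.18, 1.03 and 0.54, with a mean of 0.58 ± 0.43 (SD, n = 3; limma, adjusted p = 0.103). The strain value of experiment 2 thus rests on tag set A alone, and the mean without experiment 3 was 0.92.

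ADE1 lay above ADE2 on 3 of 3 arrays, by 2.43 ± 1.30 (SD, n = 3), and their values did not overlap. Of all 36 pairs of ADE strains, 25 had values that did not overlap over the 3 arrays, against 58.1% of all pairs of strains in the pool.

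The paralogs ADE16 and ADE17 encode the same bifunctional enzyme, which adds the last formyl group to AICAR and closes the ring to IMP. The loss of either gene leaves the other in place, and yeast needs adenine only when both are lost. The ADE16 strain stood at -1.07, -1.05 and -1.34, with a mean of -1.15 ± 0.16 (SD, n = 3), the lowest of the ADE strains and 2.22-fold from 0 (limma, adjusted p = 0.0141). The ADE17 strain stood at 0.25, 0.34 and -0.25, on both sides of 0, with a mean of 0.11 ± 0.32 (SD, n = 3; limma, adjusted p = 0.6) and a 95% interval of -0.36 to 0.59. Without centring the ADE17 mean was -0.051, so that its sign depends on that step.

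ADE16 minus ADE17 was -1.31, -1.39 and -1.10 in the 3 experiments, a mean of -1.27 ± 0.15 (SD, n = 3). The values did not overlap, and the difference was negative on 3 of 3 arrays. An exact two-sided sign-flip permutation test gave p = 0.25, the smallest p that 3 arrays allow, so that this test cannot reach 0.05.

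The difference rested on 1 tag. In tag set B the ADE16 strain had -2.23, -2.39 and -2.79 (limma, adjusted p = 0.00935), against 0.28, 0.24 and -0.23 for ADE17. In tag set A the same ADE16 strain had 0.095, 0.29 and 0.11 (limma, adjusted p = 0.278), against 0.21, 0.45 and -0.27 for ADE17. ADE16 minus ADE17 was thus -2.57 ± 0.060 in tag set B and 0.032 ± 0.30 in tag set A (SD, n = 3 each; exact two-sided permutation p = 0.25 and 1). The tags of ADE16 lay 2.63 apart, at the 96.4th percentile of strains with complete tags, whose median was 0.33. The tags of ADE17 lay 0.035 apart and had the same sign on 3 of 3 arrays. Which tag of ADE16 reports the strain was not tested.

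**Figure D2:**
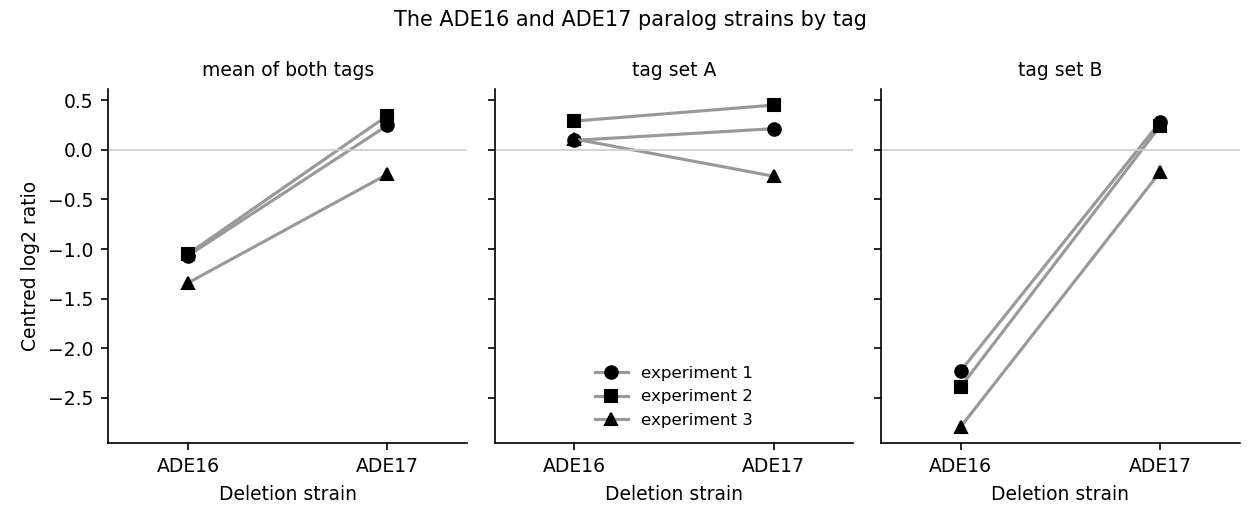
Centred log2 ratio (vertical axis) of the ADE16 and ADE17 deletion strains for the mean of both tags and for each tag set, with a line joining the 2 strains on the same array (symbols mark the 3 experiments). The lines are steep in tag set B, where ADE16 lies between -2.79 and -2.23, and nearly level in tag set A, where the mean difference is 0.032.

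Ade12 starts the branch that leads from IMP to AMP. The ADE12 strain stood at 0.46, 0.39 and 0.54, above 0 on all arrays, with a mean of 0.46 ± 0.072 (SD, n = 3; limma, adjusted p = 0.037). Tag set B alone gave 0.46, 0.39 and 0.22 and missed the threshold (limma, adjusted p = 0.0794). Tag set A was filled only in experiment 3, at 0.86, so that the strain value there mixes tags while the others rest on tag set B. Without centring the mean was 0.30 and the call was lost (limma, adjusted p = 0.0818; 0.0366 to 0.15 over its alternatives).

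Ade3 is the cytosolic enzyme of folate metabolism that makes the formyl donor for the steps of Ade8 and of Ade16 and Ade17. The ADE3 strain stood at 0.34, -0.73 and -0.55, with a mean of -0.31 ± 0.58 (SD, n = 3; limma, adjusted p = 0.403). Its tags moved against each other between arrays. Tag set A had -1.51, 0.50 and 0.063, while tag set B had 2.19, -1.95 and -1.17. The tags had opposite signs on all 3 arrays, and their means, -0.32 and -0.31, nearly coincide only because these values cancel. The SD of tag set B, 2.20, and of tag set A, 1.05, were larger than the SD of the strain mean, 0.58.

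**Figure D3:**
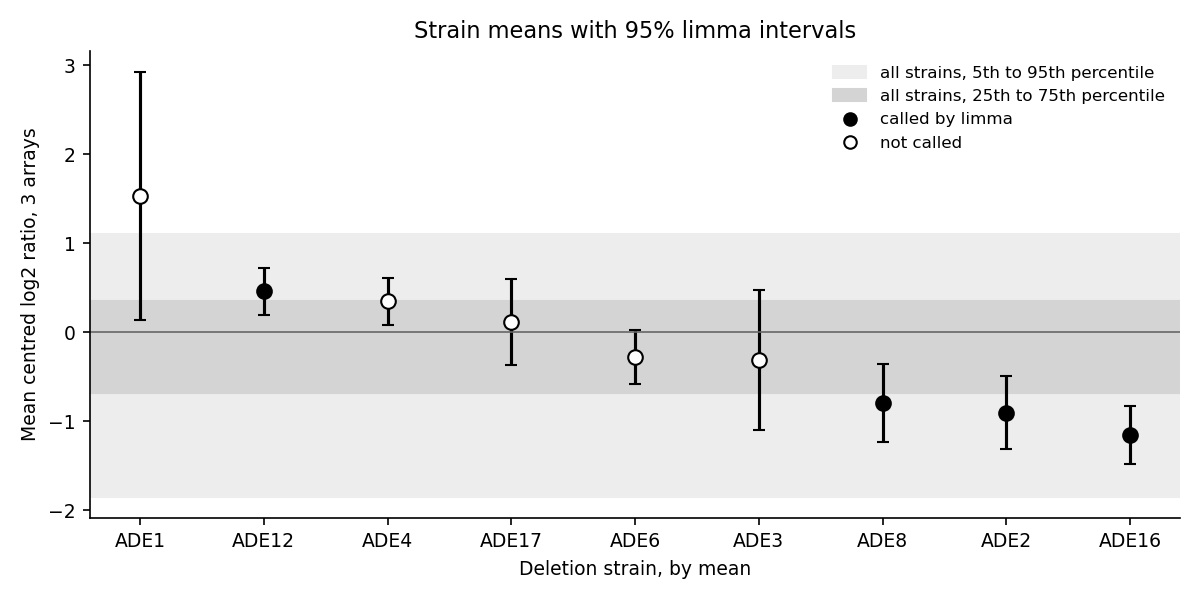
Mean centred log2 ratio over 3 arrays (vertical axis) of the 9 ADE strains in order of their means, with bars for the 95% limma interval and filled points for called strains; grey bands mark the central ranges of all 5204 strains. The means descend from 1.53 in ADE1 to -1.15 in ADE16, and ADE1 alone lies above the 95th percentile of all strains, 1.11.

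In the order of the means, ADE1 came first, then ADE12, ADE4, ADE17, ADE6, ADE3, ADE8, ADE2 and ADE16. Of the 8 neighbouring pairs in this order, only ADE1 and ADE12 had values that did not overlap over the 3 arrays. The adjacent ADE8 and ADE2 differed by 0.10 ± 0.41 and ADE6 and ADE3 by 0.031 ± 0.49 (SD, n = 3 each), within the spread of the arrays. Of the 9 strains, 7 kept the same sign on all arrays, against 70.5% of all strains, with ADE3 and ADE17 as the exceptions. Steps before AIR spanned 1.15 between their lowest and highest strain mean, the Ade2 and Ade1 steps 2.43, and the paralogs of the AICAR step 1.27. In tag set A alone the paralog means differed by 0.032, and the ADE1 mean was 0.58. For scale, the 25th and 75th percentiles of all strains were -0.68 and 0.35. Whether strains of 1 section differ more or less than other strains was not tested.

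Tested alone, tag set A called 0 ADE strains positive and 2 negative among 7, against 18.9% and 15.6% of all strains, and tag set B called 1 positive and 3 negative among 8, against 18.2% and 14.9%. The tags of 4 of the 6 ADE strains with complete tags did not overlap, against 35.1% of such strains. These were ADE4, ADE6, ADE8 and ADE16, and ADE8 alone of them had tags of the same sign on all arrays. None of the 50 ADE values stood at the lowest deposited ratio, 0.01, or at the placeholder ratio of 999999. None of the 9 genes lies on the chromosome of CIN8.

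Ratios were set against the 5-FOA percentage, which rose over the experiments. In limma's fit of a trend, 0 of 9 ADE strains were called, against 0.0% of all strains, and 0 of 9 had an unadjusted p under 0.05 (263 of 5204 strains). ADE1 had the largest slope among them, 1.93 ± 0.61 (SE) per 0.1% 5-FOA (limma, unadjusted p = 0.0671, adjusted p = 1), followed in size by ADE3 at -0.90 ± 0.52. For ADE1 the tags measured differed between arrays, and the slope of a single tag was not tested. Since every experiment had its own percentage, the effects of 5-FOA and of experiment cannot be told apart.

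Strains of the routes that feed or leave the purine pathway were then compared. In the AMP and GMP branches, 1 of 8 tested strains was positive, ADE12, and 1 negative, against 16.2% and 17.4% of all strains. The negative strain was ADE13, at -1.78 ± 0.87 (SD, n = 3; limma, adjusted p = 0.0458), which lacks the lyase that acts both before AICAR and after Ade12. ADE13 had -1.87, -0.94 and -0.67 in tag set A, and -3.48 and -2.79 in experiments 1 and 3 in tag set B. It and ADE12, the strains of consecutive enzymes on the way from IMP to AMP, thus lay on opposite sides. Whether haploid cells can grow without each of the listed genes was not tested.

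Purine salvage and uptake strains, which lack the enzymes and permeases that recover bases, had 2 positive and 2 negative calls among 13, near the 16.2% and 17.4% of all strains, and a median of 0.021. The APT1 strain, without adenine phosphoribosyltransferase, stood at -0.99 ± 0.070, negative by both tags. XPT1, of xanthine salvage, stood at 0.76 ± 0.097, positive by both tags. AAH1, adenine deaminase, stood at 0.43 ± 0.078 with tag set A alone, and FCY2, the purine and cytosine permease, at -0.41 ± 0.083 (SD, n = 3 each).

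Strains of one-carbon and folate supply, the source of the formyl groups, had 2 positive and 2 negative calls among 14, also near 16.2% and 17.4%, and a median of -0.023. FAU1 (tags at 1.32 and 0.68), of formyl-folate turnover, and MIS1 (0.76 ± 0.0032), the mitochondrial counterpart of Ade3, were positive by both tags. SHM1 (-2.75 ± 0.078), mitochondrial serine hydroxymethyltransferase, and MTD1 (-1.39 ± 0.21), a cytosolic folate dehydrogenase, were negative, each through 1 tag. Tag sets A and B gave -5.28 and -0.23 for SHM1 and 0.30 and -3.09 for MTD1 (SD, n = 3 each). The tag set A values of SHM1 lay near the lowest deposited ratio, 0.01.

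PRPP synthetase strains, which lack subunits of the enzyme that makes the starting sugar, had means below 0 in 4 of 4 cases and were called negative in 3, against 17.4% of all strains. PRS1 (-1.70 ± 0.43) was negative by both tags, and PRS5 (-0.52 ± 0.18) and PRS4 (-0.45 ± 0.057) by the strain mean. Calls by both tags were thus 1 of 4, against 5.71% negative among strains with complete tags. PRS3 was not called and stood at 0.023, -1.99 and -0.42 in experiments 1, 2 and 3. Histidine strains, from the route that releases AICAR as a by-product, had means below 0 in 7 of 7 cases, with HIS6 (-1.56 ± 0.66) and HIS5 (-0.91 ± 0.35) called negative, 2 of 7 against 17.4% (SD, n = 3 each). Of these 7, 0 were called by both tags. HIS4 stood at 0.020 in experiment 2 and HIS7 at 0.45 in experiment 3. Tag set A of HIS1 ran from -3.00 to 1.52 over the arrays. A mean below 0 was found in 55.4% of all strains. Of the regulators BAS1, PHO2 and GCN4, 0 of 3 were called. BAS1, an activator of the ADE genes, stood at -1.75, -2.84 and 0.26, and PHO2, its partner, at -0.097, 0.068 and 0.12. The swing of BAS1 lay in tag set B, at -3.15, -5.48 and 0.95, while its tag set A gave -0.35, -0.21 and -0.43.

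**Figure D4:**
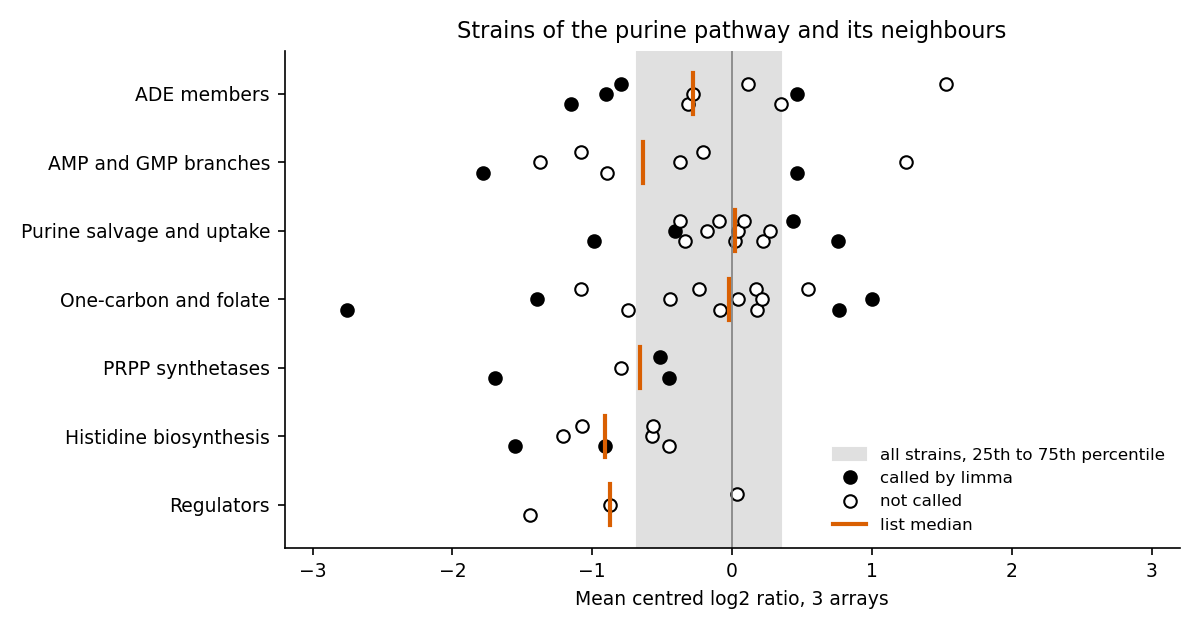
Mean centred log2 ratio over 3 arrays (horizontal axis) of each tested strain in the ADE genes and 6 lists of related genes, with filled points for strains called by limma and an orange bar for each list's median; the grey band holds the central range of all strains. The ADE strains lie on both sides of 0 around a median of -0.28. All 4 PRPP synthetase and all 7 histidine strains lie below 0, as do 55.4% of all strains. Of these, 3 PRPP synthetase and 2 histidine strains were called.

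Strains most like the ADE group were sought by the root mean square difference from the median profile of the 6 ADE strains with all values, taken over 6 values (2 tag sets on 3 arrays). Of 4287 other strains, FPS1, MRH4 and SPE4 were nearest, at 0.084, 0.10 and 0.13. The profile itself lay between -0.37 and 0.17, near the centre of the pool, so that nearness to it marks strains close to 0.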

How the data were processed

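The authors deposited 1 log2 ratio per probe and array. Per the labels, images were read with GenePix 5.1; formula, normalization, filters, centring and direction of the ratio, and signal over background, are not given in the sources used here. Deposited medians were -0.17, -0.15 and -0.15. A set of 36 values at a ratio of 999999 was taken as placeholders and left out. Platform annotation named 18794 of 22575 probes. Probes 10971 identifiers apart named the same gene in all 9397 pairs, taken as the strains' 2 tags (tag sets A and B). From each value the median of its tag set on that array was subtracted, repeated spots were averaged, and then the 2 tags. Strains complete over the 3 arrays entered limma 3.58.1 (R 4.3.3; lmFit on an intercept, eBayes, two-sided, Benjamini-Hochberg over 5204 strains, threshold 0.05), a script tested on simulated data. The number of arrays limits the precision. Tables and plots used pandas 2.3.3, numpy 2.4.6, scipy 1.17.1 and matplotlib 3.10.9 in Python 3.11.15.

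The members and lists were chosen with earlier results of these data known. Named were all members, up to 4 called strains per list, CIN8 and the 3 nearest strains; further strains were chosen after their values were seen. Alternatives changed centring, spots, tags, filters, arrays, covariate, lowest ratios and variance model.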

Additional observations from a re-analysis of the deposited data

How the results depend on the processing

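Over 129 recomputed means of the 9 ADE strains, 100 kept direction and side of the threshold, 22 lost a call (2 of them turning sign), 4 gained one and 5 turned sign. Leaving out 1 experiment gave 0 to 0 calls among all strains, 0 to 0 ADE strains positive, and 0 to 0 negative, also by both tags. Those fits used fewer arrays, and why the calls were lost was not tested. With 5-FOA as a covariate, 228 strains were called, with 0 ADE strains positive, 0 negative and 0 negative by both tags. With the tag value nearer to 0 on each array, 751 strains were called, 0 ADE strains positive and 1 negative; ADE16 then stood at 0.16 (also with tag set A alone), ADE4 at -0.067 (likewise) and ADE16 minus ADE17 at 0.089 (0.032 with tag set A). Tag set A alone gave 0 positive ADE strains, and tag set B alone 1, ADE4 in place of ADE12. Without centring, 0 ADE strains were positive and 4 negative, with ADE6 added. ADE17 then turned to -0.051, and 32.3% of all calls were positive, against 48.2%. Among strains with both tags on all arrays, 1 ADE strain was positive, ADE4, and 2 negative, ADE8 and ADE16. ADE2 and ADE12 could not be tested there. With robust eBayes, with medians of spots, with 2 arrays as the minimum, with array-wide centring, without the lowest ratios and with placeholders kept (the last chosen after seeing the data), the counts of ADE calls did not change. Values are already paired by array, since both pools of an experiment share one, and with 1 group of arrays no further replicate block applies.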

Other observations

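Among the strains described, ADE16, SHM1 and MTD1 share a pattern in which 1 tag lay far below 0 and the other near it. The GCN4 strain had a like split in experiments 1 and 2, with -2.31 and -3.02 in tag set B and -0.42 and 0.19 in tag set A. Its tag set B was empty in experiment 3. Tags that did not overlap were found in 35.1% of all strains with complete tags. The far tag was in tag set B for ADE16 (-2.47 ± 0.29) and MTD1 (-3.09 ± 0.36) and in tag set A for SHM1 (-5.28 ± 0.35), while the other tags averaged 0.16, 0.30 and -0.23 (SD, n = 3 each). Each tag of ADE16, SHM1 and MTD1 kept its level over the 3 arrays. Tag set A of SHM1, between -5.49 and -4.87, lay near the lowest deposited ratio, 0.01. Deposited ratios were multiples of 0.01, so that the level and the scatter of this tag are coarse. IMD4, an IMP dehydrogenase gene, had a wide tag on the other side, with 4.39, 0.46 and 1.72 in tag set B, against 0.47, 0.17 and 0.27 in tag set A, and its mean of 1.25 ± 1.08 (SD, n = 3) was not called (limma, adjusted p = 0.129). These strains were chosen after their values were seen.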
